A study of Mus musculus with 8 samples.

Results

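Osteopontin, the secreted phosphoprotein encoded by Spp1, and 7 other genes used as markers of bile duct and other epithelial cells were followed in the livers of 8 mice. The genes were chosen as markers, with earlier results of these data known, and they are 8 of the 34547 genes summed from the files. They are Spp1, the surface proteins Epcam and Cldn7, the type II keratins Krt7 and Krt8, the type I keratins Krt18 and Krt19, and the transcription factor Sox9. All mice were C57BL/6J, and the comparison asked how raised Nudt7, a coenzyme A hydrolase of peroxisomes, bears on the fasted liver transcriptome. The 4 Nudt7 mice were given mouse Nudt7 by AAV, a virus used to carry genes into liver, and the 4 GFP mice, the controls, were given the fluorescent protein GFP by AAV. Both groups carried AAV, were injected at 8 weeks with 2.5e+11 particles by tail vein, and had their livers collected after a 24 h fast, when 11 to 12 weeks old, 3 to 4 weeks after injection. The sources used here give neither the promoter and serotype of the virus nor the sex of the mice. By the design text each library is 1 mouse, and no batch of injection or extraction is named.

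Bile ducts are lined by cholangiocytes, epithelial cells that modify bile and make up a small share of the liver. Keratins are filament proteins that work as pairs of a type II and a type I chain. Hepatocytes make Krt8 with Krt18, and cholangiocytes add Krt7 and Krt19. Sox9 marks duct cells and some hepatocytes next to the portal vein. Epcam and Cldn7 are an adhesion molecule and a tight junction claudin of epithelia. Spp1 is made by cholangiocytes and also by macrophages and other cells. In whole liver, fewer cells of a type and less RNA per cell cannot be told apart.

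To let a reader compare the sequence around their starts, promoters are shown for the pairs of members with the highest Pearson r over all 8 livers. These pairs were Spp1 with Epcam and Krt8 with Krt18. The promoters are RefSeq windows of GRCm38.p6, from 250 bases before to 50 bases after the annotated start, written 5′ to 3′ on the strand of the gene. The Spp1 window is chr5:104434861-104435160 (plus strand), Epcam chr17:87635729-87636028 (plus), Krt8 chr15:102004293-102004592 (minus) and Krt18 chr15:102027966-102028265 (plus). Capitals mark matches on either strand to 5 motifs, a TATA box, a CCAAT box, a GC box, an AP-1 site and an E-box, whose letters follow the sequences. Of the 2 Spp1 windows in the table, the one nearest to the start of the gene is shown.
Spp1: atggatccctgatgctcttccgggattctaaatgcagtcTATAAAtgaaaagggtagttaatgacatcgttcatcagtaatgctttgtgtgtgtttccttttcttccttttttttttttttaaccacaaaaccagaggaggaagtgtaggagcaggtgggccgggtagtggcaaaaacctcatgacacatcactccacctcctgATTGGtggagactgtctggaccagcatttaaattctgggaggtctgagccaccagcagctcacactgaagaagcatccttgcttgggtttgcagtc
Epcam: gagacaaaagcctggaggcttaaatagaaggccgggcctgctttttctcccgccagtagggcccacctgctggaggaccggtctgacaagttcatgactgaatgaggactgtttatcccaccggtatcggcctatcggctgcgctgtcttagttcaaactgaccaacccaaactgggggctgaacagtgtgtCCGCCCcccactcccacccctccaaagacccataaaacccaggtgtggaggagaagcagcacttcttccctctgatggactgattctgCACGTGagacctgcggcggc
Krt8: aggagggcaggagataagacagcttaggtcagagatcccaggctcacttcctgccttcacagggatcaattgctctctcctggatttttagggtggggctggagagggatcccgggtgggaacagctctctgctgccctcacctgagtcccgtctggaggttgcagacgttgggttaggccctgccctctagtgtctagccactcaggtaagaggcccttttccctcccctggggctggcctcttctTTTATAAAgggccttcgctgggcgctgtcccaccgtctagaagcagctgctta
Krt18: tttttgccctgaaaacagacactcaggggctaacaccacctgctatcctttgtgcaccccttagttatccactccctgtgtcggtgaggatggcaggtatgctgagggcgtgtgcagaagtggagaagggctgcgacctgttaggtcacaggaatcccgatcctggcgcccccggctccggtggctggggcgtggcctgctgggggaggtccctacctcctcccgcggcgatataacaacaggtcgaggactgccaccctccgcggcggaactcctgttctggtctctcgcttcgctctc
The first base of a match is given relative to the RefSeq start, with negative positions before it. For Spp1, Krt8 and Krt18 that start differs from the start of the GENCODE M21 gene coordinates given below. In the Spp1 window a TATA box match began at −211 and a CCAAT box match at −46. Krt8 held TATA box letters on both strands, overlapping, from −3. Epcam held a GC box match at −58 and an E-box match within the bases after the start. The Krt18 window held 0 of the 5 motifs, and no motif was shared by all 4 windows. The TATA box was searched as TATAAA, which 13.6% of the 32851 promoter windows of the table held. The second motif was searched as CCAAT, held by 37.4% of windows, and the GC box as GGGCGG, held by 35.7%. The AP-1 site was searched as TGANTCA, held by 7.8%, and the E-box as CACGTG, held by 7.2%. Of the 8 members, 6 had a window in the table.

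By GENCODE M21, Krt8 (chr15:101996698-102004482, minus strand, GRCm38) and Krt18 (chr15:102028180-102032027, plus strand) are transcribed away from each other. Krt7 lies on the same chromosome (101411043 to 101430313), Krt19 on chromosome 11 (100140810 to 100148665), with Sox9 (112782224 to 112787760) and Cldn7 (69964779 to 69967885). Spp1 lies on chromosome 5 (104435118 to 104441050) and Epcam on chromosome 17 (87635979 to 87651129).

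The libraries held 11187806 to 15487092 estimated reads in Nudt7 livers and 11466892 to 23640734 in GFP livers. The delivered gene checked the labels: Nudt7 was at 1301, 1599, 3569 and 1555 CPM (reads per 1e+06, with TMM-scaled library sizes) in Nudt7 replicates 1 to 4, against 60.7 to 79.9 CPM over the GFP livers. Alb, the albumin gene of hepatocytes, was at 36700 to 59770 CPM in Nudt7 livers, against 45230 to 59980 CPM in GFP livers. The library of Nudt7 replicate 3 stood apart, at 62.3 on the first principal component (35.7% of the variance) against −20.0 to 2.54 for the other 7. Its genes with short transcripts lay 0.363 log2 units above their mean over the libraries (median) and its genes with long transcripts at −0.31. It also held 1814 CPM of red cell genes, against 303 to 642 CPM in the other 7. Among members with a single transcript in the files, lengths ran from 1400 bases (Krt18) to 4135 bases (Sox9). Values without that library, or with the length trend removed, are given beside some results of the members, and not beside those of other named genes. The part of red cells and of transcript length in the members' values was not tested.

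By length-normalised abundance (TPM), the 8 members spanned a wide range of levels. Krt18 averaged 139.5 ± 25.9 TPM in Nudt7 livers, against 112.6 ± 5.25 TPM in GFP livers (SD, n = 4 in both). Krt8 averaged 102.0 ± 26.0 TPM in Nudt7 livers, against 57.8 ± 10.8 TPM in GFP livers. Their ranges over livers overlapped, but Krt18 was above Krt8 in each of the 8 livers. Spp1 came next, at 15.3 ± 2.71 TPM in Nudt7 livers, against 7.76 ± 1.69 TPM in GFP livers. Sox9 followed at 5.51 ± 1.05 TPM in Nudt7 livers, against 4.84 ± 1.41 TPM in GFP livers. The ranges of Spp1 and Sox9 over livers overlapped, but Spp1 exceeded Sox9 in each liver, by 1.63 to 3.585 times in Nudt7 livers, against 1.49 to 1.85 times in GFP livers. The duct keratins and the surface proteins were near 1 TPM, a level that 88.9% to 90.9% of tested genes exceeded. Krt19 averaged 1.16 ± 0.294 TPM in Nudt7 livers, against 0.877 ± 0.0986 TPM in GFP livers, and Epcam 1.05 ± 0.286 TPM in Nudt7 livers, against 0.647 ± 0.226 TPM in GFP livers. Cldn7 averaged 1.01 ± 0.564 TPM in Nudt7 livers, against 0.815 ± 0.367 TPM in GFP livers, and Krt7 0.894 ± 0.405 TPM in Nudt7 livers, against 1.015 ± 0.458 TPM in GFP livers. The ranges of these 4 genes overlapped, so their order was not resolved. The sum of Krt8 and Krt18 exceeded that of Krt7 and Krt19 by 88.6 to 191.9 times in Nudt7 livers, against 82.4 to 115.9 times in GFP livers. The 191.9 was that of Nudt7 replicate 3, and the other Nudt7 livers, at 88.6 to 110.2 times, lay within the range of the GFP livers. The keratins of ducts held few reads, 111 for Krt19 and 242 for Krt7 over all 8 libraries, against 13614 for Krt8 and 16632 for Krt18, the pair that hepatocytes also make.

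**Figure D1:**
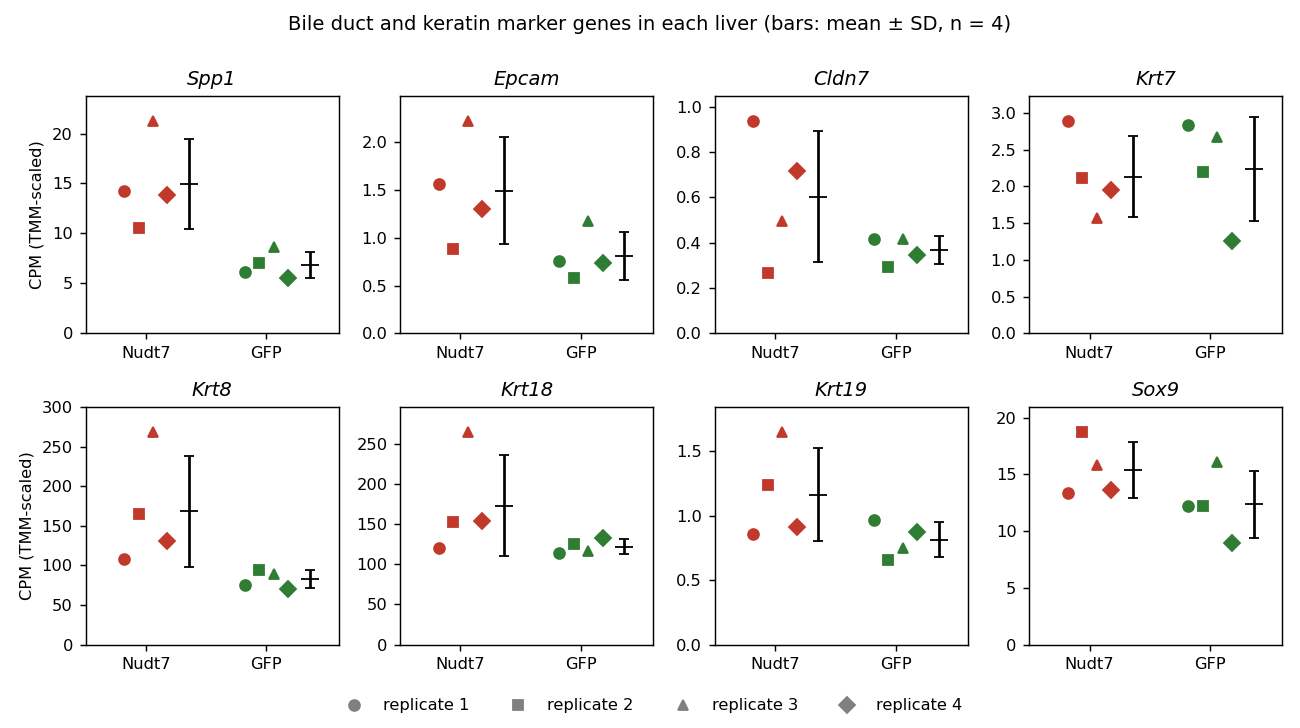
CPM of each of the 8 marker genes by liver, with Nudt7 livers left of GFP livers; points are livers, with 1 symbol per replicate number, and bars are the mean ± SD (n = 4). Spp1 (10.5 to 21.25 CPM in Nudt7, 5.56 to 8.615 CPM in GFP) and Krt8 (108.6 to 268.6 CPM in Nudt7, 70.2 to 94.9 CPM in GFP) did not overlap between groups, and the other 6 genes did.

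Of the 8 members, 7 had enough reads for the test across all genes, and 0 passed the quasi-likelihood test of edgeR at 0.05 after Benjamini-Hochberg adjustment over 13678 genes, where 0.0439% of genes tested passed as higher and 0.117% in either direction. Before adjustment 4 of the 7 had a p under 0.05, all higher in Nudt7 livers, where 4.25% of genes tested did so. Spp1, Krt8, Epcam and Krt18 were these 4. DESeq2 called 2 members higher (Spp1 and Krt8), where it called 85 genes higher. Those were 0.375% of the 22649 genes with reads, a wider set than the 13678 of edgeR, so the 2 shares are not alike. Limma-voom with sample weights called Spp1 alone of the members, where it called 58 genes higher. The groups did not overlap for 2 of the 8, Spp1 and Krt8, where 2.74% of tested genes were higher without overlap and 5.75% lay without overlap in either direction. Of the 7 tested members 6 had positive fold changes, beside 49.8% of all genes tested, and their median was 0.50 log2 units, beside −0.00089 over all genes tested. Cldn7 had too few reads to be tested. Epcam reached the minimum of 0.727 CPM in 4 Nudt7 and 2 GFP libraries and Krt19 in 4 and 3, so their passing leaned on the group in which they were higher.

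**Figure D2:**
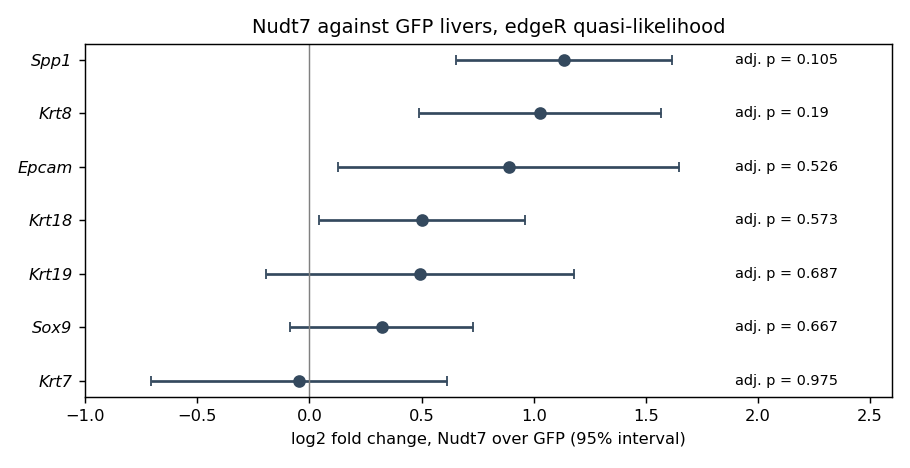
Log2 fold change of the 7 tested members, Nudt7 over GFP livers (n = 4 each), with 95% intervals from the edgeR quasi-likelihood fit and adjusted p at the right. The intervals of Spp1, Krt8, Epcam and Krt18 lie above 0 and those of Krt19, Sox9 and Krt7 include it, and 0 of the 7 adjusted p values are under 0.05.

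Spp1, the osteopontin gene, was at 14.2, 10.5, 21.25 and 13.8 CPM in Nudt7 replicates 1 to 4, against 6.16, 7.08, 8.615 and 5.56 CPM in GFP replicates 1 to 4. The lowest Nudt7 liver, replicate 2, was still above the highest GFP liver, replicate 3. The fold was 2.19 (log2 fold change 1.13, SE 0.22, 95% interval 0.65 to 1.615), with an edgeR unadjusted p of 0.000274, rank 35 of the genes tested, and an adjusted p of 0.105. The counts behind it were 119 to 258 reads in Nudt7 libraries and 89 to 128 in GFP libraries. Over 14 alternatives the adjusted p of Spp1 ran from 0.00109 to 0.325 and passed in 4, among them the fit with the length trend removed (log2 fold change 1.03, adjusted p = 0.0352). Without Nudt7 replicate 3 the log2 fold change was 0.93 and the adjusted p 0.0661. Almost all Spp1 reads were assigned to Spp1-201 (ENSMUST00000031243.14), 96.7% in Nudt7 livers, against 97.05% in GFP livers. Its level was 14.6 ± 2.87 TPM in Nudt7 livers, against 7.52 ± 1.88 TPM in GFP livers. Spp1-205 took 3.06% of the reads in Nudt7 livers, against 2.945% in GFP livers, and 4 of the other 5 listed transcripts had 0 reads in every liver. Of the Spp1 sequence words of 31 bases, 14.3% also occur in the annotated gene Gm42793, whose reads were not counted apart from those of Spp1 here.

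Spp1 was not ordered by the Nudt7 level among the Nudt7 livers. Nudt7 replicate 3 had the highest level of both, 3569 CPM of Nudt7 and 21.25 CPM of Spp1, but replicate 2, with 1599 CPM of Nudt7, had the lowest Spp1. With 4 livers a correlation was not computed.

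Krt8, the type II keratin of simple epithelia and of hepatocytes, was at 108.6, 165.4, 268.6 and 130.8 CPM in Nudt7 replicates 1 to 4, against 75.6, 94.9, 89.7 and 70.2 CPM in GFP replicates 1 to 4. The groups did not overlap, and Nudt7 replicate 3 stood highest. The log2 fold change was 1.03 (SE 0.25, 95% interval 0.49 to 1.57, edgeR adjusted p = 0.1901), and 0.72 without Nudt7 replicate 3 (adjusted p = 0.0953) and 0.65 with limma-voom and sample weights (adjusted p = 0.116). Krt18, its type I partner, was at 119.8, 152.6, 264.2 and 154.0 CPM in Nudt7 replicates 1 to 4 and at 113.3, 124.8, 116.4 and 133.0 CPM in GFP replicates 1 to 4. Here the groups overlapped, since Nudt7 replicate 1 lay below GFP replicates 2 and 4. The log2 fold change of Krt18 was 0.50 (SE 0.21, edgeR adjusted p = 0.5725), and it was 0.23 without Nudt7 replicate 3 (adjusted p = 0.627) and 0.24 with limma-voom and sample weights (adjusted p = 0.502).

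The balance of the partners was then read within each liver. The ratio of Krt8 to Krt18 in TPM was 0.67, 0.806, 0.764 and 0.661 in Nudt7 replicates 1 to 4, against 0.497, 0.566, 0.586 and 0.4 in GFP replicates 1 to 4. The groups did not overlap, and the means were 0.725 ± 0.071 in Nudt7 livers, against 0.512 ± 0.084 in GFP livers. The difference was 0.51 on the log2 scale, 0.51 by CPM and 0.55 by CPM with the length trend removed. This ratio was chosen after its values were seen, so it is a description with no test. Of the Krt8 sequence words of 31 bases, 36.05% also occur in other genes, most of them in the pseudogene Krt8-ps, which was listed at 0 reads in all libraries. For Krt18 the share was 11.4%, most of it in the pseudogene Gm5200, which had at most about 1 read in a library. How reads of such copies were divided cannot be read from the files, so the levels of both keratins carry that uncertainty.

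**Figure D3:**
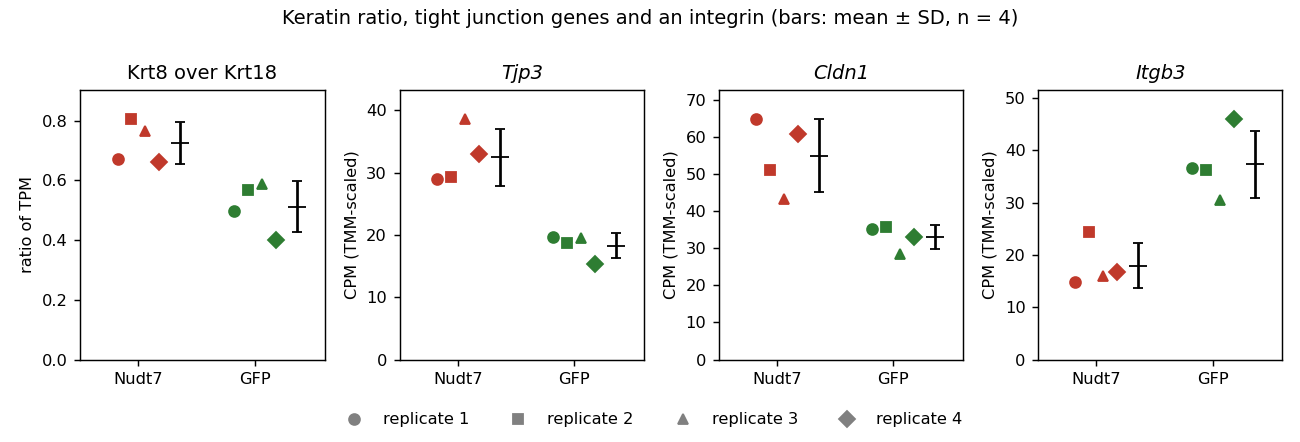
Ratio of Krt8 to Krt18 TPM and CPM of Tjp3, Cldn1 and Itgb3 by liver, with Nudt7 livers left of GFP livers; points are livers and bars the mean ± SD (n = 4). The groups do not overlap in any of the 4 panels, and Itgb3 is lower in Nudt7 livers (14.8 to 24.4 CPM, against 30.5 to 46.1 CPM in GFP livers). The panels were selected: the ratio after its values were seen, and the genes from those with the smallest p of their lists. Of all genes tested 5.75% lay without overlap in either direction.

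Epcam, the epithelial cell adhesion molecule, was at 1.56, 0.883, 2.22 and 1.30 CPM in Nudt7 replicates 1 to 4, against 0.7615, 0.584, 1.17 and 0.739 CPM in GFP replicates 1 to 4. The groups overlapped only through Nudt7 replicate 2 and GFP replicate 3. The log2 fold change was 0.89 (SE 0.35, 95% interval 0.13 to 1.65, edgeR adjusted p = 0.526), or 0.65 without Nudt7 replicate 3. It rested on 10 to 27 reads per Nudt7 library and 8 to 17 per GFP library. Cldn7, a claudin that binds Epcam in other tissues, had 12, 3, 6 and 11 reads in the Nudt7 libraries and 6, 4, 5 and 8 in the GFP libraries, or 0.603 ± 0.289 CPM in Nudt7 livers, against 0.368 ± 0.0604 CPM in GFP livers. Those groups overlapped (exact permutation test, two-sided, p = 0.229), and with so few reads a difference was neither shown nor excluded.

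The duct keratins had smaller fold changes than Spp1 and wide intervals. Krt19 was at 0.859, 1.24, 1.65 and 0.912 CPM in Nudt7 replicates 1 to 4 and at 0.969, 0.657, 0.753 and 0.869 CPM in GFP replicates 1 to 4. The groups overlapped, with a log2 fold change of 0.49 (SE 0.31, 95% interval −0.20 to 1.18, edgeR adjusted p = 0.687), or 0.29 without Nudt7 replicate 3. Krt7, its type II partner in ducts, was at 2.89, 2.12, 1.565 and 1.955 CPM in Nudt7 replicates 1 to 4 and at 2.84, 2.19, 2.68 and 1.26 CPM in GFP replicates 1 to 4. Its log2 fold change was −0.05 (95% interval −0.71 to 0.61, adjusted p = 0.975), and the sign turned in 4 of 14 alternatives. Both intervals, from 9 to 41 reads per library, include 0 and also a change of the size measured for Krt18. Such a change was thus neither shown nor excluded, and the part of depth in this was not tested. Sox9, the duct transcription factor, was at 13.35, 18.7, 15.8 and 13.6 CPM in Nudt7 replicates 1 to 4 and at 12.2, 12.2, 16.1 and 8.91 CPM in GFP replicates 1 to 4. With 167 to 212 reads per library its log2 fold change was 0.32 (SE 0.19, 95% interval −0.09 to 0.73, edgeR adjusted p = 0.6675), with 0.49 without GFP replicate 3, 0.215 without Nudt7 replicate 2 and 0.20 without GFP replicate 4. GFP replicate 3 lay within the range of the Nudt7 livers.

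Across livers, Spp1 was set against each of the other members on log2 CPM. Pearson and Spearman correlations were tested by exact permutation of the 8 livers, two-sided, and adjusted over the 13678 genes correlated with Spp1. Of those genes 16.3% had an unadjusted p under 0.05 for r, and 0.0% passed after adjustment. Of the 7 members 3 had an unadjusted p under 0.05 and 0 passed. Because the groups did not overlap for Spp1, each pooled r holds the group difference, and r with the group means removed is given beside it as a description. The 2 livers farthest from the median of Spp1 were Nudt7 replicate 3 and GFP replicate 4, and r was computed again without them. The Nudt7 and the GFP group each hold 4 livers, too few for a correlation of their own.

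Epcam followed Spp1 most closely. Its r was 0.911 (exact permutation p = 0.00238, adjusted p = 0.1165) and its rho 0.905 (p = 0.00456, adjusted p = 0.2102), and 0.6945% of genes had a higher r. The r of Epcam was 0.837 without the 2 farthest livers, 0.836 without Nudt7 replicate 3 and 0.86 with the group means removed. On log2(TPM + 0.1) it was 0.876 (exact permutation, adjusted p = 0.321). These values rest on 8 to 27 Epcam reads per library. Krt8 came second, with r = 0.878 (exact permutation p = 0.00332, adjusted p = 0.129) and rho 0.881 (p = 0.00724, adjusted p = 0.245). For Krt8 r was 0.674 without the 2 farthest livers and 0.628 with the group means removed. Krt18 had r = 0.732 (exact permutation p = 0.0237, adjusted p = 0.243) but rho 0.524 (p = 0.197, adjusted p = 0.717), and r was 0.409 without Nudt7 replicate 3 and 0.552 with the group means removed. The relation of Spp1 with Krt18 was thus weaker without that library. For Krt18 r was 0.548 without the 2 farthest livers, of which Nudt7 replicate 3 is 1, and 0.656 with the length trend removed.

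By the pooled r, the duct keratins and Sox9 followed Spp1 less closely than Epcam, Krt8 and Krt18 did. Krt19 had r = 0.625 (exact permutation p = 0.0936, adjusted p = 0.386), rho 0.357 (p = 0.389, adjusted p = 0.843) and r = 0.222 without Nudt7 replicate 3, and with the group means removed r was 0.227. Sox9 had r = 0.592 (exact permutation p = 0.121, adjusted p = 0.421), rho 0.619 (p = 0.115, adjusted p = 0.599) and r = 0.291 without the 2 farthest livers, and with the group means removed r was 0.28. With the length trend removed the r of Sox9 was 0.708, above that of Krt18 (0.656). Without Nudt7 replicate 3 it was 0.569, again above that of Krt18 (0.409). For Cldn7 r was 0.591 (exact permutation p = 0.1265, adjusted p = 0.428) and rho 0.571 (p = 0.151, adjusted p = 0.6555), from 3 to 12 reads per library, and r with the group means removed was 0.319. For Krt7 r with Spp1 was near 0, at −0.03 (exact permutation p = 0.948, adjusted p = 0.981) and rho 0.0476 (p = 0.935, adjusted p = 0.989). The sign of r for Krt7 turned in 7 of 14 alternatives.

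**Figure D4:**
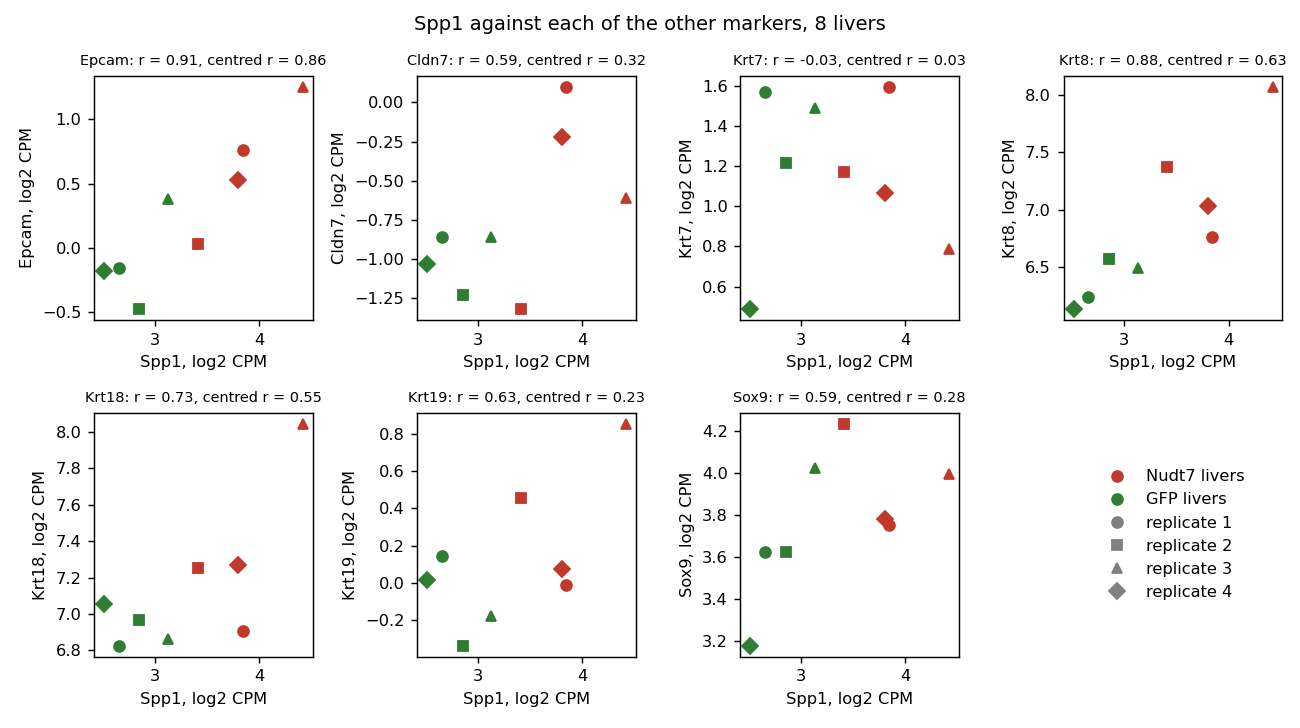
Spp1 (x axis, log2 CPM) against each of the other 7 members (y axis, log2 CPM) in the 8 livers, with Nudt7 livers in red and GFP livers in green; titles give Pearson r and r with the group means removed (centred r). Epcam (0.911) and Krt8 (0.878) lie closest to a line, and the r of Krt7 is −0.03.

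Among the 28 pairs of members 22 had a positive r, with a median of 0.517 and a range from −0.573 (Krt7 with Krt18) to 0.911 (Spp1 with Epcam). With the group means removed, 20 were positive and the median was 0.295. Krt8 and Krt18 were the closest pair then, at 0.869, beside 0.896 pooled. Without Nudt7 replicate 3 they were at 0.72. That was below Epcam with Cldn7 (0.849), Spp1 with Epcam (0.836), Krt8 with Sox9 (0.771) and Spp1 with Krt8 (0.768). Krt18 with Krt19 was at 0.851 pooled and 0.767 with the group means removed, and at 0.534 without Nudt7 replicate 3. Krt7 with Krt19, the duct pair, was at −0.358 pooled and −0.417 with the group means removed, at −0.08 without Nudt7 replicate 3 and at −0.15 with the length trend removed. Their main transcripts were 4094 bases (Krt7-201) and 1576 bases (Krt19-201) long. These are descriptions over 8 livers that share their libraries and depth.

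**Figure D5:**
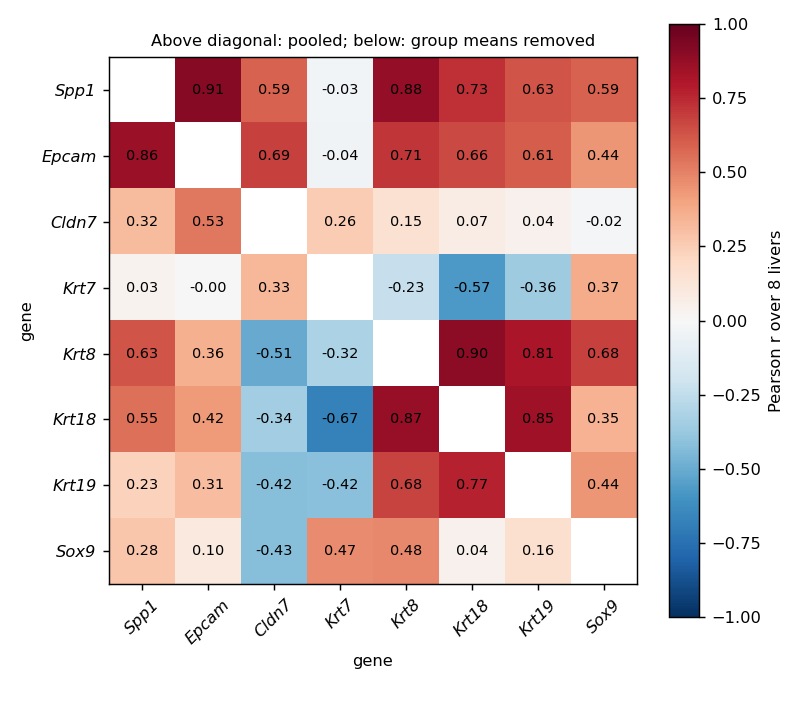
Pearson r of log2 CPM over the 8 livers for each pair of the 8 members, pooled above the diagonal and with group means removed below it; red is positive and blue negative. Spp1 with Epcam (0.911 and 0.86) and Krt8 with Krt18 (0.896 and 0.869) are the strongest pairs, and Krt7 runs against Krt18 (−0.573 and −0.674).

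By CPM in each liver, Nudt7 replicate 3 was the highest of the 8 for 5 members (Spp1, Epcam, Krt8, Krt18 and Krt19). Nudt7 replicate 1 was the highest for Cldn7 and Krt7, and Nudt7 replicate 2 for Sox9. By TPM Krt19 was highest in Nudt7 replicate 2 (1.56) and Krt7 in GFP replicate 2 (1.49). GFP replicate 4, the most deeply sequenced library, was the lowest for 4 members (Spp1, Krt7, Krt8 and Sox9).

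Genes were ranked by r with Spp1 among 12268 with a mean of at least 1 CPM. Genes with clone or predicted names (Gm numbers, Rik or accession-like) were left out of these and may have a higher r. The named genes most like Spp1 over the 8 livers were not epithelial markers of the lists used here. They were Cyp2c23, a cytochrome P450 of arachidonic acid metabolism (r = 0.991), Acbd4, an acyl-CoA binding protein gene (0.9855), Agpat2, an acyltransferase gene of phospholipid and triglyceride synthesis (0.983), the tetraspanin gene Cd81 (0.981) and Car3, a carbonic anhydrase gene (0.978). Each had an adjusted p of 0.0565 by exact permutation. Most opposed were Map3k5, the stress kinase ASK1 (−0.985), Reps1 (−0.978) and Ahcyl1 (−0.9725). Cyp2c23 averaged 66.8 CPM in Nudt7 livers, against 37.2 CPM in GFP livers (edgeR adjusted p = 0.111). Car3 averaged 52.6 CPM in Nudt7 livers, against 8.68 CPM in GFP livers, and passed the test (log2 fold change 2.62, edgeR adjusted p = 0.0423). These r hold the group difference, as those of the members do. The genes most like Krt8 were Anxa11 (r = 0.988), Smlr1 (0.976), Abhd4 (0.974), Gstm4 (0.961) and Serpinb9 (0.961), with adjusted p values of 0.175 to 0.182.

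Other cholangiocyte genes had positive fold changes in 10 of 11 tested, where 49.8% of all genes tested did. Of 20 listed genes 11 were tested, 0 passed by the edgeR adjusted p, 2 had an unadjusted p under 0.05 with a positive fold change (4.25% of all genes tested), and the median was 0.22 log2 units, beside −0.00089 over all genes tested. Pkhd1, the fibrocystin gene of duct cilia, was at 10.15, 8.39, 4.12 and 8.28 CPM in Nudt7 replicates 1 to 4 and at 4.85, 4.45, 5.69 and 3.00 CPM in GFP replicates 1 to 4 (log2 fold change 0.80, SE 0.28, edgeR adjusted p = 0.464). Its lowest Nudt7 value was that of replicate 3, the liver highest for Spp1. In that library genes with long transcripts lay at −0.31 log2 units (median). The part of transcript length in the value of Pkhd1 was not tested. Cd24a, a surface protein gene, was at 0.77 (SE 0.31, adjusted p = 0.539) and Krt23 at 0.51 (SE 0.235, adjusted p = 0.5995). The summed level of the list was 143.7 to 168.1 CPM in Nudt7 livers, against 123.8 to 150.3 CPM in GFP livers, and 9 of its genes were under 1 CPM in every liver.

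Of the epithelial junction genes, Tjp3 had the smallest p. Tjp3, a scaffold gene of tight junctions, was at 28.9, 29.2, 38.6 and 32.9 CPM in Nudt7 replicates 1 to 4, against 19.7, 18.7, 19.5 and 15.3 CPM in GFP replicates 1 to 4. The groups did not overlap (log2 fold change 0.83, SE 0.14, edgeR adjusted p = 0.0516). Cldn1, a claudin of hepatocyte and duct junctions, was at 64.9, 51.0, 43.15 and 60.7 CPM in Nudt7 replicates 1 to 4 and at 35.1, 35.6, 28.4 and 33.0 CPM in GFP replicates 1 to 4, again without overlap (0.73, SE 0.145, edgeR adjusted p = 0.105). Among the Nudt7 livers Cldn1 was lowest in replicate 3, where Spp1 was highest. The part of transcript length in that value was not tested either. Cldn3 was at 0.35 (SE 0.135, adjusted p = 0.521), the desmosomal gene Dsc2 at −0.49 (SE 0.19, adjusted p = 0.516) and Cdh1, the E-cadherin gene, at 0.19 (SE 0.135, adjusted p = 0.7104). Of 17 tested 0 passed, 5 had an unadjusted p under 0.05 as higher and 1 as lower (4.25% and 4.03% of all genes tested), and 11 were positive with a median of 0.07.

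Receptors of osteopontin gave 1 gene near the threshold, in the opposite direction. Itgb3, the integrin beta 3 subunit that binds osteopontin with Itgav, was at 14.8, 24.4, 16.0 and 16.7 CPM in Nudt7 replicates 1 to 4, against 36.6, 36.3, 30.5 and 46.1 CPM in GFP replicates 1 to 4. The groups did not overlap (log2 fold change −1.06, SE 0.18, edgeR adjusted p = 0.058). Cd44 was at 0.05 (SE 0.20), Itgb1 at 0.06 (SE 0.10), Itgb5 at −0.07 (SE 0.10) and Itga4 at −0.15 (SE 0.18), with adjusted p values from 0.834 to 0.955. Itgb1 also lay without overlap, higher in Nudt7 livers (162.9 to 168.0 CPM, against 153.2 to 162.8 CPM in GFP livers). Of all genes tested 5.75% lay without overlap in either direction. Of 8 receptor genes tested 0 passed, 3 were positive (49.8% of all genes tested) and the median was −0.05. Itgb3 was the 1 with an unadjusted p under 0.05, as lower (4.03% of all genes tested). Notch and YAP pathway genes, which guide duct fate, had a median of −0.12 over 12 tested, of which 0 passed. Of the 12, 4 were positive (49.8% of all genes tested). Tead1 (−0.88, SE 0.27, edgeR adjusted p = 0.386) was the 1 with an unadjusted p under 0.05, as lower (4.03% of all genes tested). Amotl2 was at −0.42 (SE 0.20), Ccn2 at −0.40 (SE 0.27), Notch1 at −0.23 (SE 0.16) and Ccn1 at 0.35 (SE 0.22).

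Markers of other cells were read beside the members, each list by its summed level over livers. Kupffer cell genes summed to 191.4 to 398.9 CPM in Nudt7 livers, against 234.5 to 343.9 CPM in GFP livers. Their defining gene Clec4f was at 35.2 to 81.5 CPM in Nudt7 livers, against 51.4 to 72.8 CPM in GFP livers. Genes of macrophages that make Spp1 summed to 45.02 to 78.4 CPM in Nudt7 livers, against 47.1 to 63.2 CPM in GFP livers, with Trem2 at 1.89 to 3.62 CPM in Nudt7 livers, against 1.565 to 3.51 CPM in GFP livers. For both lists the highest sum was in Nudt7 replicate 3, the liver highest for Spp1. The same liver also had the highest sum of the hepatocyte, the other cholangiocyte and the red cell lists. It was highest too for the list of gall bladder, pancreas and gut genes. Of 12 tested Kupffer cell genes and 10 tested genes of macrophages that make Spp1, 0 passed edgeR and 0 had an unadjusted p under 0.05. The median log2 fold changes of these 2 lists were 0.14 and 0.02.

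Stellate cell genes summed to 352.6 to 422.5 CPM in Nudt7 livers, against 344.1 to 427.7 CPM in GFP livers, and endothelial genes to 430.3 to 485.9 CPM in Nudt7 livers, against 473.7 to 518.0 CPM in GFP livers. Mesothelial genes, whose cells also make Krt8, Krt18 and Krt19, summed to 7.18 to 15.6 CPM in Nudt7 livers, against 6.69 to 23.7 CPM in GFP livers. In these 3 lists 0 genes passed edgeR and 1 had an unadjusted p under 0.05, the endothelial gene Lyve1 (log2 fold change −0.43, adjusted p = 0.565). Lymphocyte genes summed to 3.62 to 8.12 CPM in Nudt7 livers, against 4.26 to 8.53 CPM in GFP livers, with 0 of 4 tested genes past an unadjusted p of 0.05. Neutrophil genes, of which 0 were tested, summed to 1.41 to 3.80 CPM in Nudt7 livers, against 1.30 to 2.26 CPM in GFP livers. Red cell genes had a median log2 fold change of 0.71 over 5 tested, of which 0 had an unadjusted p under 0.05. Hepatocyte genes summed to 71670 to 109500 CPM in Nudt7 livers, against 86880 to 105400 CPM in GFP livers. Of 12 tested hepatocyte genes 0 passed and 3 had an unadjusted p under 0.05, each with a negative fold change (4.03% of all genes tested). Over the 12 the median log2 fold change was 0.00, with 6 of them positive. The 3 were the tyrosine aminotransferase gene Tat (−0.85, SE 0.215, edgeR adjusted p = 0.225), the transcription factor gene Hnf4a (−0.43, adjusted p = 0.422) and the urea cycle gene Cps1 (−0.45, adjusted p = 0.573). The part of all these cells in the values of the members was not tested.

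Of 12 gall bladder, pancreas and gut genes 8 were under 1 CPM in every liver, and Cpa1 and Pnlip, of pancreas, were at 0 reads in all 8 libraries. The list summed to 89.2 to 174.5 CPM in Nudt7 livers, against 73.0 to 103.6 CPM in GFP livers. Most of this sum was Fabp2, at 79.65 to 156.6 CPM in Nudt7 livers, against 67.6 to 98.4 CPM in GFP livers. Its log2 fold change was 0.21 (SE 0.22, edgeR adjusted p = 0.793). Of the 4 tested 0 passed and 2 had an unadjusted p under 0.05 with a positive fold change (4.25% of all genes tested). Ly6d, an epithelial surface gene, was at 4.997, 4.50, 12.0 and 3.65 CPM in Nudt7 replicates 1 to 4, against 0.7615, 2.12, 1.255 and 1.35 CPM in GFP replicates 1 to 4. The groups did not overlap (log2 fold change 2.19, SE 0.415, edgeR adjusted p = 0.105), and replicate 3 again stood highest. Cela1, an elastase gene, was at 0.49 (SE 0.20, adjusted p = 0.57). Of 10 other filament genes 2 were tested, Krt10 at 0.27 (SE 0.22) and Vim at −0.01 (SE 0.25), and Krt5, Krt14, Krt15 and Krt17, keratins of stratified epithelium, were at 0 reads in all 8 libraries.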

How the data were processed

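Liver RNA of 8 mice was sequenced, 1 library a mouse. Genome build GRCm38 and the tools FastQC, Salmon and DESeq2 are named per the submitters' processing notes, and the sources used here state no version, index or option. What the authors deposited are estimated counts per transcript (NumReads, not normalized) and TPM, which sum to 1e+06 in a library, per the file headers.

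Transcripts were named from GENCODE M21. Of 109282, 107987 were named, and the other 1295 (0.552% to 1.06% of a library's reads) were left out. Estimated counts were summed over the transcripts of each gene and rounded. No 2 libraries held identical values. The test was edgeR 4.0.16's quasi-likelihood test (robust, TMM, filterByExpr, no covariate), which left 13678 genes, with a threshold of 0.05 on the Benjamini-Hochberg adjusted p. CPM use TMM-scaled sizes, and log2 CPM for correlations a prior count of 2. SE and intervals include the variation between livers. Alternatives were DESeq2 1.42.0, limma-voom (limma 3.58.1) with sample weights, other scaling, no filter, length trend removed and each library left out. Scripts were tested on simulated data. Genes to be named were the 8 members, Nudt7, the first listed gene and up to 4 genes with the smallest p of each of 15 lists, and the 5 most and 3 least like Spp1 and the 5 most like Krt8 by Pearson r; not each list gene is printed. Genes with clone or predicted names were left out of those most like Spp1 and Krt8. Members and lists were chosen with earlier results of these data known. Sequences come from RefSeq (GRCm38.p6).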

Additional observations from a re-analysis of the deposited data

Results flagged for a closer look

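Sox9 in Nudt7 replicate 2 was at 7.08 TPM, far from the 4.94 to 5.02 TPM of the other 3 Nudt7 livers, a gap of 0.961 of the range of the group (above Dixon's 95% critical value for 4 samples). By CPM the same liver, at 18.7, did not pass this measure. Of 32 groups of 4 values examined (8 members, both groups, CPM and TPM), 1 stood out, and chance alone picks out about 1 in 20 such groups.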

How the results depend on the processing

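No paired analysis was possible because the labels give the Nudt7 and the GFP mice no shared replicate numbers; each title holds a number of its own, and replicates 1 to 4 are names given here in order of deposit. Over all genes, 6 were called higher and 10 lower; DESeq2 called 85 higher and 64 lower, limma-voom with sample weights 58 and 42, no filter on low counts 15 higher, removal of the length trend 23 higher, and upper-quartile scaling 6 lower. Leaving out 1 library at a time gave 1 to 8 higher and 1 to 12 lower. Of the members, 0 were called; DESeq2 called 2 higher, and no filter, limma-voom with sample weights and removal of the length trend called 1 each (Spp1). Krt8 passed in DESeq2 alone (1.05, adjusted p = 0.00894). With 1 library left out 0 members were called in each of 8 fits, with adjusted p values of 0.0661 to 0.325 for Spp1 and 0.0953 to 0.521 for Krt8. The log2 fold changes kept their direction under all 14 alternatives for the tested members other than Krt7, which was at 0.03 with limma-voom, 0.09 without Nudt7 replicate 3, and 0.11 and 0.06 without GFP replicates 1 and 3 (−0.25 to 0.11 over the 8 libraries left out). The r of Spp1 with Krt7 was 0.045 on log2(TPM + 0.1), 0.171 with the length trend removed, 0.033 with group means removed, 0.349 and 0.005 without Nudt7 replicates 3 and 4, and 0.17 and 0.013 without GFP replicates 1 and 3 (−0.62 to 0.349 over the 8). The other 6 correlations kept their sign. The Krt8 to Krt18 difference was 0.398 to 0.581 log2 units with 1 library left out, alternatives chosen after seeing the data. The cause of these changes was not tested. Depth limits Epcam, Krt19 and Cldn7, at 3 to 27 reads per library.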
